A study of Mus musculus with 12 samples.

Results

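Genes of bone morphogenetic protein (BMP) signalling were followed across 4 groups of mouse cells: the ligand genes Bmp2, Bmp4 and Bmp7, the inhibitory SMAD genes Smad6 and Smad7, and the target genes Id1, Id2, Id3, Msx1 and Msx2. They were taken by name from the 24736 genes of the deposited table, so the 10 members are 10 of 24736 genes, and all 10 were among the 14196 genes with enough reads to be tested. The cells were embryonic stem cells differentiated for 72 h in FGF (10 ng/ml) and LGK974 (5 µM, an inhibitor of WNT secretion), with 3 biological replicate libraries of strand-specific polyA RNA-seq in each group. EpiLC, epiblast-like cells, were wild type and received FGF and LGK974 alone. CEpiLC, caudal epiblast-like cells, were wild type and also received CHIR99021, a GSK3 inhibitor that activates WNT signalling, from day 2 to day 3. SOX2-OFF and SOX2-ON were SOX2 TetON cells, in which endogenous Sox2 was ablated and a doxycycline-dependent Sox2 transgene was placed at Hprt, and both received CHIR99021 over the same interval. Doxycycline was withdrawn in SOX2-OFF and kept at 1 µg/ml in SOX2-ON. The wild-type cells were the HM1 TetON parent line, which carries rtTA at Rosa26. The TetON line was derived from a picked clone, and no TetON culture without CHIR99021 was among the 4 groups. Any difference between wild-type and TetON cells could therefore come from the manipulation of SOX2 or from the line, and these cannot be told apart here. In comparisons with EpiLC the TetON groups also differed in CHIR99021, which cannot be told apart from these either. Doxycycline was present in SOX2-ON alone, so in any comparison with SOX2-ON an effect of the drug itself cannot be told apart from that of SOX2. The stem cells had been kept on feeder fibroblasts, which were removed by plating before differentiation.

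BMPs are secreted dimers that bind pairs of type I and type II serine/threonine kinase receptors, which phosphorylate SMAD1, SMAD5 and SMAD9. These bind SMAD4, enter the nucleus and act on target genes, among them the Id genes, which encode inhibitors of basic helix-loop-helix factors, and the Msx genes, which encode homeodomain repressors. SMAD6 and SMAD7 are themselves induced by the pathway and act as negative feedback on the receptors. In the gastrulating mouse embryo BMP4 from the extraembryonic ectoderm is required for mesoderm and germ cell formation, and WNT and BMP signals act together in the posterior epiblast and primitive streak.

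Promoter sequence is shown for the paralogues whose levels moved apart in these cells, Id2 with Id3 and Msx1 with Msx2, and for Smad6, which differed between the TetON groups. Sequences are from RefSeq on GRCm38.p6 and run 5′ to 3′ from 250 bases before to 50 bases after the start used for each promoter: Id2 (chr12:25096043-25096342, minus strand), Id3 (chr4:136143572-136143871, plus strand), Msx1 (chr5:37824536-37824835, minus strand), Msx2 (chr13:53472731-53473030, minus strand) and Smad6 (chr9:64022010-64022309, minus strand). For Smad6 that start lies inside the gene as annotated (chr9:63953076-64022085), so fewer than 250 bases of its window precede the annotated gene. Capitals mark matches on either strand to 3 motifs, the GC-rich SMAD1 and SMAD5 element GGCGCC, the TCF/LEF core CTTTGA and the SOX core ATTGTT.
Id2: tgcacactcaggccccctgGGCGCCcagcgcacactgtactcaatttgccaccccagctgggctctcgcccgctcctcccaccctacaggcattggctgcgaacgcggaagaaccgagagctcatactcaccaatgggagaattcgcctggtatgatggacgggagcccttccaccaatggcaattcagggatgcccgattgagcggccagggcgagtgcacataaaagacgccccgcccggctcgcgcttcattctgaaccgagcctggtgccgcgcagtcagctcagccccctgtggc
Id3: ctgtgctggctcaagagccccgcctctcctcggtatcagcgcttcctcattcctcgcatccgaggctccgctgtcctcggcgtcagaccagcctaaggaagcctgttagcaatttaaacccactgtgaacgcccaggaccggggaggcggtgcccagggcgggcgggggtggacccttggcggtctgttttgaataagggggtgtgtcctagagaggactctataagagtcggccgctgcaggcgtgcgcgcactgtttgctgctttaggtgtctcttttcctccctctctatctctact
Msx1: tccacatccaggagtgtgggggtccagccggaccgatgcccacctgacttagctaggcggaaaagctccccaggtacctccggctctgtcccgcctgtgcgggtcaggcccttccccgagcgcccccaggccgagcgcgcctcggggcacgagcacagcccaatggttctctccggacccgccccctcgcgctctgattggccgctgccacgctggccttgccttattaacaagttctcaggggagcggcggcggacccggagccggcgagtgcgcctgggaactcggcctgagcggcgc
Msx2: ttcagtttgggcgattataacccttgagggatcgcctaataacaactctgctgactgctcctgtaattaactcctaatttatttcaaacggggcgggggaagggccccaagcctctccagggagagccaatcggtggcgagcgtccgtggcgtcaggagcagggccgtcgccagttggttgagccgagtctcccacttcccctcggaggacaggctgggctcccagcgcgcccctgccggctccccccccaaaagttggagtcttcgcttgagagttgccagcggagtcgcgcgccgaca
Smad6: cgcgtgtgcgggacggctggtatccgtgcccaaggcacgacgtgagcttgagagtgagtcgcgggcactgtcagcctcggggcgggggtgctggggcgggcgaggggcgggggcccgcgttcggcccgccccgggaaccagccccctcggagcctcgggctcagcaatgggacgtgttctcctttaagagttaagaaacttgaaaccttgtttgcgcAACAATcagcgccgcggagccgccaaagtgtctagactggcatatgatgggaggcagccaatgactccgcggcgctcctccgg
Of the 10 members 6 were in the promoter table, these 5 and Bmp4; Bmp2, Bmp7, Id1 and Smad7 were not in it. Across all 32851 promoters of the same length, GGCGCC was found in 11.9%, CTTTGA in 16.0% and ATTGTT in 10.7%. The Id2 window held 1 match to GGCGCC, and the Smad6 window held 1 match to ATTGTT, read on the opposite strand as AACAAT. None of these matches overlapped another, and the windows of Id3, Msx1, Msx2 and Bmp4 held no match to the 3 motifs. GC content was between 60.0% and 70.0% in the 6 windows, against a median of 52.7% over all promoters. The RefSeq annotation of the same build places Bmp2 at chr2:133552159-133562896, Bmp7 at chr2:172868012-172940321, Id1 at chr2:152736251-152737410 and Bmp4 at chr14:46383525-46390669.

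The libraries held between 10408252 and 27337740 estimated read counts. Members had counts between 5 and 974 per library, and all 120 of these counts were whole numbers. Sox2 transcripts, the check of the labels, stood at 119 to 171 TPM (the deposited transcript level, normalised for length and depth) in EpiLC, 7.78 to 13.7 TPM in CEpiLC, 12.3 to 21.2 TPM in SOX2-OFF and 173 to 215 TPM in SOX2-ON. Sox2 RNA was not lower in SOX2-OFF than in CEpiLC but higher by 0.65 on the log2 scale (SE 0.24, adjusted p = 0.0367), with overlapping libraries, a call lost with limma-voom (adjusted p = 0.102), with the median shift of its chromosome subtracted (adjusted p = 0.0642) and without CEpiLC replicate 2 or 3 or SOX2-OFF replicate 1 or 2 (adjusted p from 0.0619 to 0.183). This gene-level value does not separate transcripts of the edited endogenous gene from those of the transgene, and it is not a measure of SOX2 protein. The study picked its clones by loss of SOX2 in flow cytometry once doxycycline was withdrawn. All 6 epiblast-like markers, Sox2 among them, had a mean of at least 1 TPM in every group. Their sums were 2531 to 2900 TPM in EpiLC and 830.1 to 1638 TPM elsewhere. Outside EpiLC most of the sum was Pou5f1, with group means of 843 to 1075 TPM. Otx2, Pou3f1 and Fgf5 had means of 165, 98.7 and 79.5 TPM in EpiLC and of at most 16.6 TPM in the other groups. Dnmt3b had a mean of 1354 TPM in EpiLC and of 131 to 222 TPM in the other groups. The 7 caudal epiblast and streak markers summed to 2.26 to 3.49 TPM in EpiLC, 1491 to 1662 TPM in CEpiLC, 966 to 981 TPM in SOX2-OFF and 242 to 294 TPM in SOX2-ON. The 8 extraembryonic endoderm markers summed to 1.36 to 2.30 TPM in EpiLC, 1.00 to 4.13 TPM in CEpiLC, with Ttr and Hnf4a at 0 in all 3 libraries, and 142 to 160 TPM in SOX2-OFF. Cubn had the highest mean of these in the TetON groups, 83.7 TPM in SOX2-OFF and 45.2 TPM in SOX2-ON, followed by Gata4, Amn and Sox17. Ttr had means of 1.83 and 0.98 TPM there, and Afp and Apoa1 had means of at most 0.363 TPM. In SOX2-ON the endoderm sum was 53.6 and 65.2 TPM in replicates 1 and 2 but 144 TPM in replicate 3, so this library stood apart from its group. Feeder fibroblast markers summed to 41.1 to 58.4 TPM in EpiLC, 60.5 to 90.0 TPM in CEpiLC and 22.6 to 42.3 TPM in TetON libraries, and lateral and extraembryonic mesoderm markers to 8.93 to 12.04, 13.5 to 23.2 and 6.60 to 9.33 TPM. Thy1 had the highest mean of the feeder markers in wild-type cells (28.0 TPM in EpiLC, 42.1 TPM in CEpiLC). Dcn and Lum had higher means in both TetON groups than in the wild-type groups. Etv2 had the highest mean of the mesoderm markers in wild-type cells (7.40 TPM in EpiLC, 13.2 TPM in CEpiLC). Its means were 2.37 TPM in SOX2-OFF and 1.11 TPM in SOX2-ON, and Tal1 was also lower in both TetON groups than in the wild-type groups. Tbx4 and Foxf1 went the other way, with higher means in both TetON groups. Hand1 was highest in SOX2-OFF (3.13 TPM), and Kdr was lowest there. Surface ectoderm and amnion markers summed to 0.280 to 0.710 TPM in EpiLC, 35.9 to 53.5 TPM in CEpiLC, 57.3 to 63.0 TPM in SOX2-OFF and 25.1 to 31.5 TPM in SOX2-ON. Wnt6 was the sole gene of this list with a mean of at least 1 TPM in CEpiLC (41.2 TPM) and SOX2-OFF (58.0 TPM). In SOX2-ON these were Tfap2a (20.5 TPM) and Wnt6 (6.39 TPM). Krt14, Krt5, Trp63 and Dlx5 had means of at most 0.35 TPM in every group. Trophoblast markers summed to 4.59 to 9.22 TPM in EpiLC, 178 to 321 TPM in CEpiLC and 76.9 to 125 TPM in TetON libraries. This list includes Cdx2, which is also in the caudal epiblast list and had the highest mean in CEpiLC (225 TPM) and SOX2-ON (65.65 TPM). In SOX2-OFF the highest means were those of Eomes (45.9 TPM), which the study names as an early streak marker, and Cdx2 (32.4 TPM). Elf5, Gata3, Plac1 and Krt7 had means of at most 4.35 TPM in every group, and Elf5 of at most 0.053 TPM. These sums differ between the groups that are compared for the members, and their part in the members' differences was not tested. These are whole-culture values, in which fewer cells of a type and less RNA per cell cannot be told apart. The median gene of chromosomes 6 and 8 was higher in TetON than in wild-type cells, by 0.58 and 0.61 on the log2 scale, and that of chromosome 11 was 0.52 lower (-0.52). On the 8 chromosomes that hold the members the shift was between -0.0046 and 0.034.

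CHIR99021 changed most of the 10 genes in wild-type cells. In CEpiLC against EpiLC, 7 of 10 members passed edgeR's quasi-likelihood test at an adjusted p of at most 0.05, where 42.2% of all tested genes passed. The 3 ligands, Smad6, Smad7 and Msx1 were higher and Id2 was lower, against 22.1% of all genes called higher and 20.1% called lower. SOX2-OFF differed from CEpiLC in 6 of 10 members (background 48.5%), of which 5 were higher (background 23.6%) and 1 lower (background 24.9%). SOX2-ON differed from CEpiLC in 6 of 10 members (background 56.5%), all higher, against 27.9% of all genes called higher and 28.6% called lower. Within the TetON line SOX2-ON differed from SOX2-OFF in 3 of 10 members (background 28.8%), with Id3 and Smad7 higher (background 14.8%) and Smad6 lower (background 14.1%). Relative to EpiLC, 8 of 10 members differed in SOX2-OFF (background 62.1%), 7 higher (background 31.5%) and 1 lower (background 30.6%). SOX2-ON differed from EpiLC in 7 of 10 members (background 59.8%), all higher, against 30.7% of all genes called higher and 29.1% called lower. The counts of the 10 members are given beside the background without a test of the difference.

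The median log2 fold change of the members was 1.16 in CEpiLC against EpiLC, 0.75 and 0.77 for SOX2-OFF and for SOX2-ON against CEpiLC, 0.35 between the TetON groups, and 2.32 and 2.21 for SOX2-OFF and for SOX2-ON against EpiLC. The median over all tested genes was between -0.01 and 0.01 in each of the 6 comparisons. On the log2 scale of counts per library size (CPM), the 3 libraries of one group did not overlap those of the other for 8 of 10 members in CEpiLC against EpiLC, where this held for 52.3% of all tested genes. The same count was 6 for SOX2-OFF against CEpiLC (background 55.3%), 5 for SOX2-ON against CEpiLC (background 59.9%) and 5 between the TetON groups (background 43.8%). Relative to EpiLC it was 8 for SOX2-OFF (background 69.2%) and 7 for SOX2-ON (background 66.1%). These comparisons share libraries with each other, so their values are given side by side and are not independent.

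**Figure D1:**
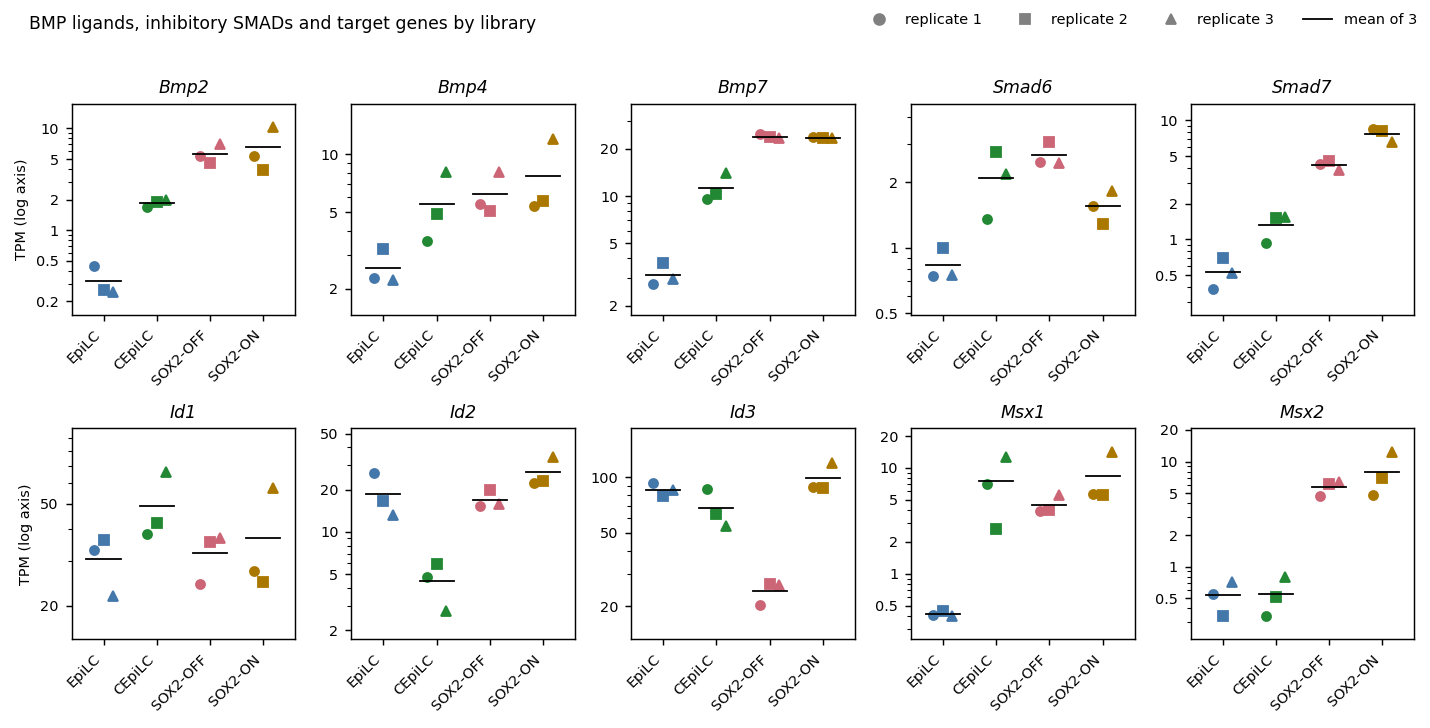
Length-normalised transcript level (TPM, log axis) of the 10 members in each of the 12 libraries, with colour for the group, symbol for the replicate and a black line for the mean of 3. EpiLC lies below every other library for Bmp2, Bmp4, Bmp7, Smad6, Smad7 and Msx1, Id2 is lowest in CEpiLC, Id3 is lowest in SOX2-OFF, and Msx2 is at 0.34 to 0.79 TPM in both wild-type groups.

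Bmp2, a ligand of the heart-forming and extraembryonic regions of the embryo, was near the limit of detection in EpiLC and rose in 2 steps. It stood at 0.45, 0.26 and 0.25 TPM in EpiLC replicates 1 to 3, at 1.7, 1.88 and 2.0 TPM in CEpiLC, at 5.33, 4.57 and 7.0 TPM in SOX2-OFF and at 5.39, 3.87 and 10.38 TPM in SOX2-ON. The 3 EpiLC libraries lay below the CEpiLC libraries and these below all 6 TetON libraries, while SOX2-OFF lay inside the range of SOX2-ON. The rise in CEpiLC over EpiLC was 2.48 on the log2 scale (SE 0.43, adjusted p = 0.000545), from EpiLC counts of 6 to 17. Over CEpiLC, Bmp2 was 1.62 higher in SOX2-OFF (SE 0.32, adjusted p = 0.00101) and 1.79 higher in SOX2-ON (SE 0.32, adjusted p = 0.000347), both on the log2 scale. The TetON groups differed by 0.17 with a 95% interval from -0.46 to 0.80 (adjusted p = 0.708).

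Bmp4, the ligand that the extraembryonic ectoderm supplies to the posterior epiblast, changed least of the 3 with CHIR99021. Its values were 2.26, 3.21 and 2.23 TPM in EpiLC, 3.55, 4.91 and 8.09 TPM in CEpiLC, 5.49, 5.04 and 8.05 TPM in SOX2-OFF and 5.39, 5.68 and 12.03 TPM in SOX2-ON. EpiLC lay below the other 9 libraries, and the other groups overlapped, each with replicate 3 as its highest library. CEpiLC exceeded EpiLC by 1.05 on the log2 scale (SE 0.37, adjusted p = 0.0383), a call that was lost without CEpiLC replicate 3, where the difference was 0.70 (adjusted p = 0.149), and without EpiLC replicate 1 or 3 or CEpiLC replicate 2. No difference passed the test among the 3 groups that had received CHIR99021, with intervals from -0.54 to 0.98 for SOX2-OFF against CEpiLC, from -0.25 to 1.23 for SOX2-ON against CEpiLC and from -0.47 to 1.01 between the TetON groups. With the replicate number as a block, SOX2-ON was 0.43 above CEpiLC (adjusted p = 0.0463).

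Bmp7, a ligand that forms heterodimers with BMP2 and BMP4, was the most abundant of the 3 per unit of transcript length. It measured 2.74, 3.73 and 2.94 TPM in EpiLC, 9.52, 10.3 and 14.04 TPM in CEpiLC, 24.81, 23.63 and 23.26 TPM in SOX2-OFF and 23.86, 23.43 and 23.51 TPM in SOX2-ON. There were 3 separate levels, EpiLC below CEpiLC and CEpiLC below both TetON groups, which coincided. The increase with CHIR99021 in wild-type cells was 1.83 (SE 0.15, adjusted p = 9.12e-07), and the level in CEpiLC was exceeded by 1.12 in SOX2-OFF (SE 0.13, adjusted p = 1.59e-05) and by 1.05 in SOX2-ON (SE 0.13, adjusted p = 1.93e-05), all on the log2 scale. Between the TetON groups the difference was -0.07, with an interval from -0.34 to 0.20. The summed level of the 3 ligands was 6.02 ± 1.02 TPM in EpiLC, 18.7 ± 4.87 TPM in CEpiLC, 35.7 ± 2.54 TPM in SOX2-OFF and 37.8 ± 7.04 TPM in SOX2-ON (mean ± SD, n = 3), of which Bmp7 made up 52.1%, 61.0%, 67.1% and 63.7%.

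**Figure D2:**
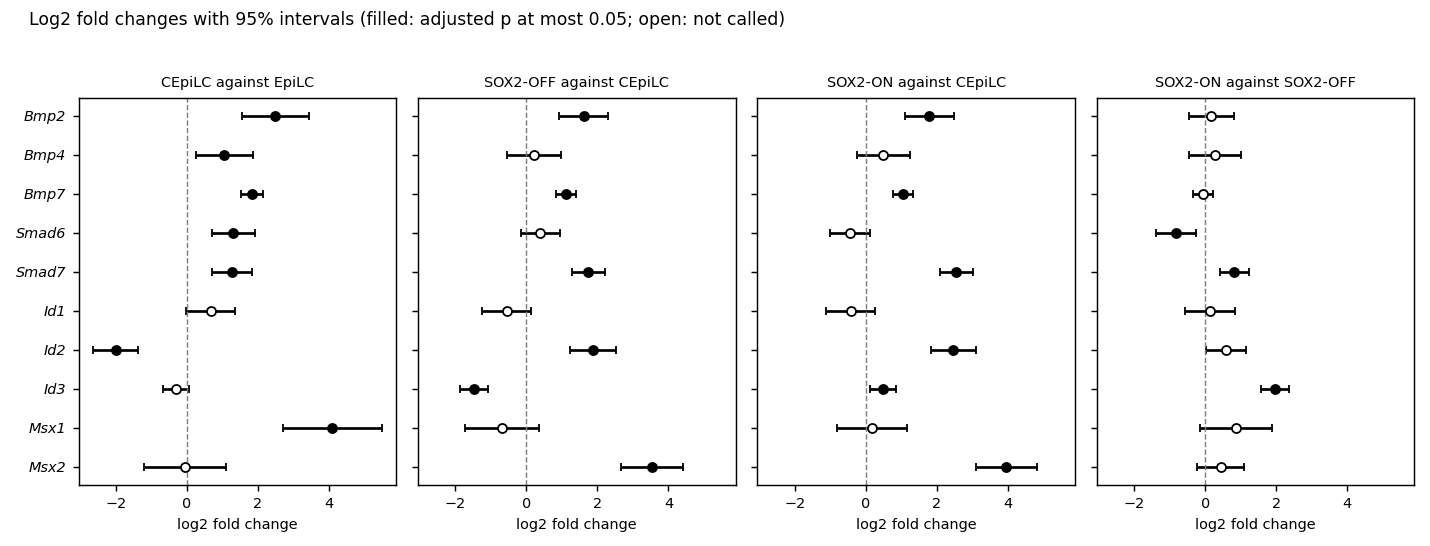
Log2 fold changes of the 10 members (points) with 95% intervals (bars) in 4 comparisons, filled where the adjusted p was at most 0.05. The 3 ligands lie to the right of 0 in CEpiLC against EpiLC, and between the TetON groups only Id3, Smad7 and Smad6 are filled, at 1.97, 0.81 and -0.83.

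The inhibitory SMAD genes took opposite directions between the TetON groups. Smad7, which blocks both BMP and TGF-beta receptors, stood at 0.38, 0.7 and 0.52 TPM in EpiLC, 0.93, 1.51 and 1.55 TPM in CEpiLC, 4.31, 4.6 and 3.85 TPM in SOX2-OFF and 8.46, 8.14 and 6.63 TPM in SOX2-ON. No group overlapped another, in the order EpiLC, CEpiLC, SOX2-OFF, SOX2-ON. Each step passed the test, at 1.28 (SE 0.26, adjusted p = 0.00169), 1.74 (SE 0.21, adjusted p = 2.33e-05) and 0.81 (SE 0.19, adjusted p = 0.00613) on the log2 scale. SOX2-ON exceeded EpiLC 14.2-fold. It was the sole member in which all 4 groups were separate from each neighbour by both range and test.

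Smad6, which acts mainly on the BMP branch, stood at 0.74, 1.0 and 0.75 TPM in EpiLC, 1.35, 2.75 and 2.18 TPM in CEpiLC, 2.48, 3.05 and 2.44 TPM in SOX2-OFF and 1.56, 1.28 and 1.82 TPM in SOX2-ON. EpiLC was lowest in all 3 libraries, SOX2-ON lay below SOX2-OFF without overlap, and CEpiLC spanned both. The rise in CEpiLC was 1.30 on the log2 scale (SE 0.28, adjusted p = 0.00237). SOX2-ON was lower than SOX2-OFF (log2 fold change -0.83, SE 0.26, adjusted p = 0.0284), from counts of 33 to 84, and the call was lost without SOX2-OFF replicate 2 (adjusted p = 0.110) or without SOX2-ON replicate 1 (adjusted p = 0.0664) or 2 (adjusted p = 0.105). SOX2-ON was 0.86 above EpiLC (adjusted p = 0.0194), a call lost without EpiLC replicate 1 or 3 or SOX2-ON replicate 3 (adjusted p from 0.0556 to 0.0649). Of the summed Smad6 and Smad7 level, Smad7 made up 38.7% ± 4.12 in EpiLC, 39.3% ± 3.33 in CEpiLC, 61.6% ± 1.71 for SOX2-OFF and 83.1% ± 4.14 for SOX2-ON (SD, n = 3).

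The 3 Id genes, the classical direct targets of BMP-activated SMADs, followed 3 different patterns. Id1 stood at 33.01, 36.08 and 21.92 TPM in EpiLC, 38.11, 42.06 and 66.42 TPM in CEpiLC, 24.3, 35.37 and 36.78 TPM in SOX2-OFF and 27.33, 24.78 and 57.79 TPM in SOX2-ON. All 3 CEpiLC libraries were above the EpiLC and SOX2-OFF libraries in TPM, the latter by 38.11 against 36.78 TPM at the nearest, and the other pairs of groups overlapped. Id1 passed the test in none of the 6 comparisons, with the largest difference 0.66 in CEpiLC against EpiLC (95% interval from -0.03 to 1.35, adjusted p = 0.113). With the replicate number as a block, Id1 was lower than in CEpiLC in SOX2-OFF (-0.55, adjusted p = 0.0132) and in SOX2-ON (-0.50, adjusted p = 0.0128). Without SOX2-ON replicate 3, the highest of its group, Id1 was lower in SOX2-ON than in CEpiLC (log2 fold change -0.89, adjusted p = 0.0178), against -0.43 with it (adjusted p = 0.262).

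Id2 fell with CHIR99021 in wild-type cells. It stood at 26.35, 16.55 and 13.24 TPM in EpiLC, 4.8, 5.97 and 2.74 TPM in CEpiLC, 15.25, 19.95 and 15.77 TPM in SOX2-OFF and 22.36, 22.97 and 34.25 TPM in SOX2-ON. The 3 CEpiLC libraries lay below all 9 others, both TetON groups overlapped EpiLC, and SOX2-ON lay above SOX2-OFF. CEpiLC was 4.03-fold lower than EpiLC (log2 fold change -2.01, SE 0.30, adjusted p = 0.000144). With the same interval of CHIR99021, Id2 was higher than in CEpiLC by 1.89 in SOX2-OFF (SE 0.30, adjusted p = 0.000183) and by 2.47 in SOX2-ON (SE 0.29, adjusted p = 1.28e-05) on the log2 scale. Against EpiLC the differences were -0.12 for SOX2-OFF (interval from -0.70 to 0.45) and 0.46 for SOX2-ON (interval from -0.10 to 1.01), and without EpiLC replicate 1 the second was 0.80 (adjusted p = 0.0159). Between the TetON groups the difference of 0.58 was not called (interval from 0.01 to 1.15, adjusted p = 0.117).

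Id3 had the highest mean TPM of the 3 in EpiLC, CEpiLC and SOX2-ON, and it was low in SOX2-OFF. It measured 92.71, 79.1 and 85.25 TPM in EpiLC, 86.6, 63.62 and 54.23 TPM in CEpiLC, 20.29, 26.44 and 26.09 TPM in SOX2-OFF and 88.48, 87.16 and 120.0 TPM in SOX2-ON. The SOX2-OFF libraries lay below all 9 others. SOX2-ON exceeded SOX2-OFF 3.91-fold (log2 fold change 1.97, SE 0.18, adjusted p = 6.36e-06), and SOX2-OFF was 2.80-fold lower than CEpiLC (-1.48, SE 0.18, adjusted p = 2.47e-05) and 3.46-fold lower than EpiLC (-1.79, SE 0.18, adjusted p = 2.53e-06). In the wild-type cells CHIR99021 gave -0.31 (SE 0.17, adjusted p = 0.163), which with the replicate number as a block was -0.33 (adjusted p = 0.0425) and without CEpiLC replicate 1 was -0.54 (adjusted p = 0.0176). SOX2-ON was 0.48 above CEpiLC (adjusted p = 0.0257), a call lost without SOX2-ON replicate 3 (0.34, adjusted p = 0.115), without CEpiLC replicate 2 or 3, or in a fit of the 6 libraries alone. Of the summed level of Id1, Id2 and Id3, Id3 made up 63.9% ± 5.96 in EpiLC, 55.9% ± 11.5 in CEpiLC, 33.1% ± 0.785 for SOX2-OFF and 61.7% ± 4.47 for SOX2-ON (SD, n = 3).

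Of the homeobox genes Msx1 and Msx2, Msx1 was higher in all 3 groups with CHIR99021 than in EpiLC, and Msx2 was higher in TetON than in wild-type cells. Msx1 stood at 0.41, 0.44 and 0.40 TPM in EpiLC, 7.05, 2.64 and 12.78 TPM in CEpiLC, 3.91, 4.02 and 5.6 TPM in SOX2-OFF and 5.68, 5.54 and 14.13 TPM in SOX2-ON. EpiLC was lowest in all 3 libraries, and the groups with CHIR99021 overlapped, with a range of 2.27 on the log2 CPM scale inside CEpiLC. The rise in CEpiLC was 17.1-fold (log2 fold change 4.09, SE 0.64, adjusted p = 0.000243), from EpiLC counts of 5 to 8, and SOX2-OFF and SOX2-ON exceeded EpiLC by 3.40 (SE 0.67, adjusted p = 0.000641) and 4.27 (SE 0.64, adjusted p = 7.29e-05) on the log2 scale. Neither TetON group differed from CEpiLC by the test, with intervals from -1.72 to 0.34 for SOX2-OFF and from -0.80 to 1.15 for SOX2-ON, and without CEpiLC replicate 2 the first was -1.11 (adjusted p = 0.0347).

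Msx2 stood at 0.55, 0.34 and 0.71 TPM in EpiLC, 0.34, 0.51 and 0.79 TPM in CEpiLC, 4.69, 6.11 and 6.37 TPM in SOX2-OFF and 4.8, 6.92 and 12.35 TPM in SOX2-ON. The wild-type groups overlapped, and all 6 TetON libraries lay above all 6 wild-type libraries. The extraembryonic endoderm marker sum was split the same way, at 1.00 to 4.13 TPM in wild-type and 53.6 to 160 TPM in TetON libraries. Bmp2, Bmp7, Smad7, Bmp6 and Tbx3 were also higher in every TetON library than in every wild-type library. In SOX2-ON replicate 3, the library with the highest endoderm sum of its group, Msx2 and Bmp2 stood 1.06 and 1.15 above the mean of replicates 1 and 2 on the log2 scale. Bmp7 (-0.03) and Smad7 (-0.35) did not stand above it. Whether cells with the endoderm markers had a part in these differences was not tested. CHIR99021 gave no detectable change in wild-type cells at counts of 7 to 12 (log2 fold change -0.06, interval from -1.21 to 1.09). Against CEpiLC, Msx2 was 11.6-fold higher in SOX2-OFF (log2 fold change 3.53, SE 0.41, adjusted p = 1.33e-05) and 15.6-fold higher in SOX2-ON (3.96, SE 0.40, adjusted p = 3.03e-06). The TetON groups differed by 0.43 (interval from -0.22 to 1.08). Msx1 made up 45.1% of the summed Msx1 and Msx2 level in EpiLC, 91.1% in CEpiLC, 44.0% for SOX2-OFF and 50.7% for SOX2-ON.

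Several members varied together among the replicates of a group. In each of the 4 groups the library with the most Bmp4 was also the library with the most Id1 and Msx1, on the log2 CPM scale, a pattern noticed after the values were seen. The same held in 3 of 4 groups for Bmp2 and Msx2, in 2 for Bmp7, Smad6, Smad7 and Id3, and in 1 for Id2. In EpiLC the order of Msx1 rests on counts of 8, 8 and 5 and a range of 0.13 on the log2 CPM scale, within counting error, so the match for Msx1 can be read in the other 3 groups alone. Of the other 14195 tested genes, 255 (1.80%) shared the highest library with Bmp4 in all 4 groups and 12.4% in 3 of them. In SOX2-ON replicate 3, Bmp2, Bmp4, Id1, Msx1 and Msx2 stood 1.06 to 1.29 above the mean of replicates 1 and 2 on the log2 scale, and 1.97% of all tested genes stood 1 or more above it. Bmp7 was within 0.03 of the other libraries' mean (-0.03), and Smad7 was lower (-0.35). The endoderm marker sum of 144 TPM in this library moved with these genes inside SOX2-ON. SOX2-OFF had endoderm sums of 142 to 160 TPM with Bmp4 at 5.04 to 8.05 TPM and Id1 at 24.3 to 36.8 TPM, and the CEpiLC sums were 1.00, 2.30 and 4.13 TPM, with replicate 3, the highest of its group in Bmp4, Id1 and Msx1, also the highest in endoderm markers. The part of other cells in this variation was not tested. Without SOX2-ON replicate 3 the number of members called was 6 against CEpiLC, 3 against SOX2-OFF and 6 against EpiLC. In that fit Bmp2 was still 1.32 above CEpiLC (adjusted p = 0.000605) and Msx2 3.53 above it (adjusted p = 3.14e-06), and the differences from SOX2-OFF were -0.31 for Bmp2, -0.19 for Bmp4, -0.34 for Id1, 0.29 for Msx1 and -0.01 for Msx2, none of them called.

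**Figure D3:**
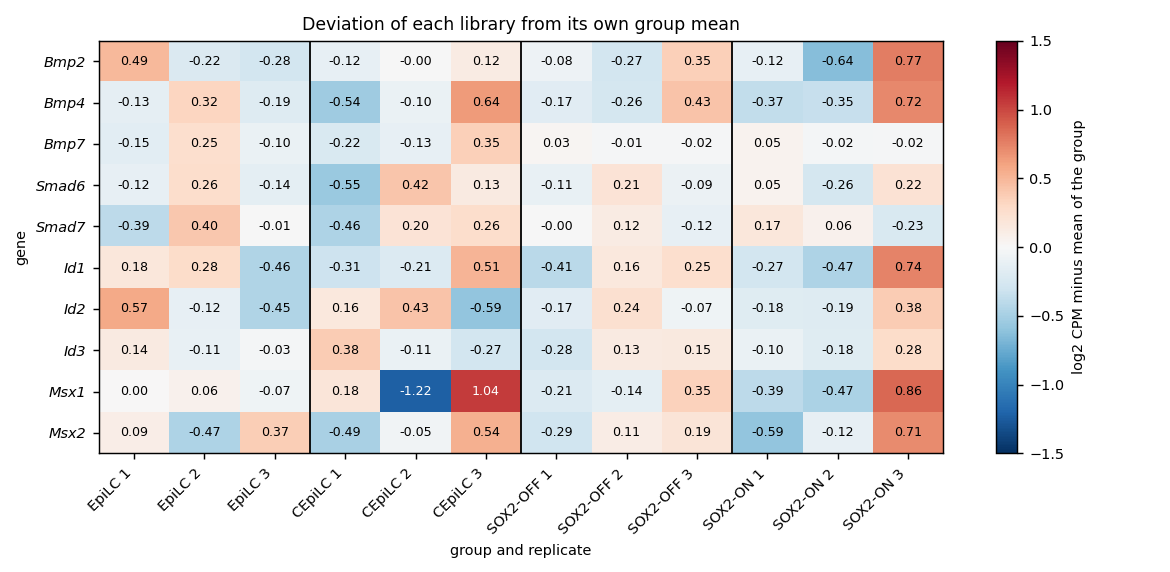
Log2 CPM of each member in each library minus the mean of its own group (colour and printed value), with black lines between groups. SOX2-ON 3 is 0.71 to 0.86 above its group mean for Bmp2, Bmp4, Id1, Msx1 and Msx2, and Msx1 in CEpiLC ranges from -1.22 to 1.04.

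For each member the tested gene with the most similar profile was found by the smallest root mean square difference of centred log2 CPM over the 12 libraries. For Msx2 it was another BMP ligand gene, Bmp6, at 0.245, where Msx2 itself varied by 1.75 about its mean. Smad7 was nearest to Zfp42, a marker of naive pluripotency, at 0.277 of 1.48, and Id3 to Dlgap1 at 0.164 of 0.794. The nearest genes of the others were Fam189a2 for Bmp2 (0.463 of 1.67), Gm16845 for Bmp4 (0.245 of 0.684), Commd3 for Bmp7 (0.272 of 1.20), Zbtb11os1 for Id1 (0.295 of 0.468), Myl3 for Id2 (0.353 of 1.02), Plekhf2 for Smad6 (0.160 of 0.651) and Nlrc4 for Msx1 (0.526 of 1.64). These are descriptions over 12 libraries of 4 groups, with no test.

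Beside the members, 60 further genes of the pathway were listed by role, of which 45 had enough reads to be tested. In CEpiLC against EpiLC 18 of 45 passed the test (15 higher, 3 lower), where 42.2% of all genes passed. Relative to CEpiLC, 26 of 45 differed in SOX2-OFF (14 higher, 12 lower; background 48.5%) and 32 in SOX2-ON (14 higher, 18 lower; background 56.5%). Between the TetON groups 18 of 45 differed (9 higher and 9 lower in SOX2-ON; background 28.8%). Relative to EpiLC, 33 differed in SOX2-OFF (23 higher, 10 lower; background 62.1%) and 31 in SOX2-ON (18 higher, 13 lower; background 59.8%). The median log2 fold changes in the first 4 of these comparisons were 0.20, 0.18, -0.04 and -0.02. The 15 genes not tested reached at most 3.03 TPM in any library, among them Bmp3, Bmp10, Bmp15 and Gdf2 of the ligands and the receptor-regulated Smad9.

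Among the 5 other ligand genes tested, Bmp6 was split between wild-type and TetON libraries as Msx2 was. It stood at 0.89 to 1.68 TPM in EpiLC, 0.88 to 1.92 TPM in CEpiLC, 8.32 to 10.8 TPM in SOX2-OFF and 9.79, 10.66 and 23.43 TPM in SOX2-ON, with no overlap between wild-type and TetON libraries. Bmp6 was 2.96 higher in SOX2-OFF (SE 0.37, adjusted p = 2.58e-05) and 3.51 higher in SOX2-ON (SE 0.37, adjusted p = 4.07e-06) than in CEpiLC on the log2 scale. SOX2-ON replicate 3 was the highest library here too. Bmp5, named after its values were seen, had another pattern, with 7, 2 and 2 counts in EpiLC, 82, 53 and 28 counts in CEpiLC, 10, 18 and 13 counts for SOX2-OFF and 18, 4 and 9 counts for SOX2-ON. It was higher in CEpiLC than in EpiLC (adjusted p = 4.57e-05), and its log2 fold change from CEpiLC was -1.63 in SOX2-OFF (SE 0.39, adjusted p = 0.00367) and -2.28 in SOX2-ON (SE 0.40, adjusted p = 0.000339).

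Of the 6 receptor genes tested, the type I receptor gene Bmpr1b changed most. It fell from 4.12 to 5.15 TPM in EpiLC to 2.10 to 2.46 TPM in CEpiLC (log2 fold change -0.99, adjusted p = 0.000431) and stood at 0.64 to 0.90 TPM in SOX2-OFF and 0.48 to 0.90 TPM in SOX2-ON. The type II receptor gene Bmpr2 rose with CHIR99021 by 0.51 (adjusted p = 0.00169) and was a further 0.50 (adjusted p = 0.00129) and 0.34 (adjusted p = 0.0122) higher in SOX2-OFF and SOX2-ON. The type I receptor gene Bmpr1a, the most abundant of the 7 receptors, was between 54.3 and 63.7 TPM in the group means. Acvr1 was lower in SOX2-OFF than in EpiLC (-0.50, adjusted p = 0.00312), and Acvr2b was lower in SOX2-ON than in SOX2-OFF (-0.29, adjusted p = 0.00391).

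Of the coreceptors, Rgma, which encodes a membrane-anchored BMP coreceptor, stood at 20.9 to 36.3 TPM in EpiLC and 19.1 to 66.1 TPM in CEpiLC, against 3.80 to 5.05 TPM in SOX2-OFF and 6.27 to 15.6 TPM in SOX2-ON. Its log2 fold change from CEpiLC was -3.35 in SOX2-OFF (SE 0.44, adjusted p = 3.72e-05) and -2.08 in SOX2-ON (SE 0.39, adjusted p = 0.000574). Eng rose by 0.56 with CHIR99021 (adjusted p = 0.0312), and the pseudoreceptor gene Bambi was lower in SOX2-ON than in SOX2-OFF (-0.60, adjusted p = 0.00754).

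Smad1, a receptor-regulated mediator, was highest in SOX2-OFF, at 40.7 to 55.4 TPM, against 15.7 to 19.1 TPM in EpiLC, 23.3 to 35.6 TPM in CEpiLC and 26.2 to 28.7 TPM in SOX2-ON. It fell from SOX2-OFF to SOX2-ON by 0.81 on the log2 scale (SE 0.15, adjusted p = 0.00153), a contrast inside the TetON line. Smad1 lies on chromosome 8, where the median gene was 0.61 higher in TetON cells, and with that shift removed SOX2-OFF exceeded CEpiLC by 0.18 (adjusted p = 0.372) in place of 0.77 (adjusted p = 0.00105). The SMAD ubiquitin ligase gene Smurf2, on chromosome 11, differed from CEpiLC by -0.55 in SOX2-OFF and by -0.42 in SOX2-ON, and with the shift of that chromosome removed these values were -0.04 (adjusted p = 0.682) and 0.12 (adjusted p = 0.134). Smad5 and the common mediator Smad4 changed by at most 0.46 and 0.37 in size in any comparison, with Smad4 at 77.8 to 105 TPM over all libraries.

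Among the extracellular antagonists the largest change was in Fst, which encodes follistatin, an activin antagonist that also binds BMPs. It rose from 4.43 to 7.60 TPM in EpiLC to 564 to 614 TPM in CEpiLC (log2 fold change 6.66, SE 0.16, adjusted p = 1.70e-11), and stood at 384 to 440 TPM in SOX2-OFF and 121 to 136 TPM in SOX2-ON, so that the 4 groups were separate. Fstl1 was at 62.3 to 76.8 TPM in EpiLC and 83.1 to 115 TPM in CEpiLC, and its log2 fold change from CEpiLC was -1.80 in SOX2-OFF (adjusted p = 7.73e-07) and -0.90 in SOX2-ON (adjusted p = 0.000112). Chrdl1, a chordin-like antagonist, was below CEpiLC in SOX2-OFF (-2.76, adjusted p = 0.00011) and SOX2-ON (-1.91, adjusted p = 0.000631). Nbl1 was 1.34 higher in SOX2-ON than in SOX2-OFF (adjusted p = 0.00128). Nog, which encodes noggin and was named after its values were seen, had 29 to 45 counts in SOX2-OFF and 36 to 67 in CEpiLC but 3, 1 and 0 counts in the SOX2-ON libraries, with adjusted p = 8.40e-05 between the TetON groups.

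Of 10 tested further genes known to rise with BMP in early embryos, 4 were higher in CEpiLC than in EpiLC and 0 lower, where 22.1% of all genes were called higher and 20.1% lower. Relative to CEpiLC, 6 were higher in SOX2-OFF (background 23.6%) and 1 lower (background 24.9%). In SOX2-ON 7 were higher than in CEpiLC (background 27.9%) and 3 lower (background 28.6%), Atoh8, Dlx3 and Hand1, named after their values were seen. Dlx3 and Hand1 lie on chromosome 11, whose median gene was lower in TetON than in wild-type cells (-0.52 on the log2 scale). Atoh8 lies on chromosome 6, whose median gene was higher (0.58). Values with these shifts removed are not given for these 3 genes, and Hand1 had counts of 5 to 12 in SOX2-ON. Between the TetON groups 4 were higher in SOX2-ON (background 14.8%) and 1 lower (background 14.1%). Against EpiLC 7 were higher and 0 lower in SOX2-OFF (backgrounds 31.5% and 30.6%) and in SOX2-ON (30.7% and 29.1%). Tbx3 encodes a T-box repressor. Its level was 0.10 to 0.36 TPM in the wild-type libraries, 10.0 to 11.9 TPM in SOX2-OFF and 11.25, 14.73 and 27.87 TPM in SOX2-ON, a difference from CEpiLC of 5.28 (SE 0.38, adjusted p = 4.08e-07) and 5.93 (SE 0.38, adjusted p = 7.12e-08). Tfap2c, an AP-2 factor of trophoblast and germ cells, was highest in SOX2-ON, at 26.04, 25.74 and 41.5 TPM against 2.06 to 4.93 TPM in the SOX2-OFF libraries (3.02 on the log2 scale, SE 0.26, adjusted p = 4.06e-06). Gata2 rose by 1.32 with CHIR99021 (adjusted p = 0.015) and exceeded CEpiLC by 1.76 in SOX2-OFF (adjusted p = 0.000448). It lies on chromosome 6, and with the shift of that chromosome removed the second value was 1.19 (adjusted p = 0.00877) and the difference of SOX2-ON from CEpiLC was 0.43 (adjusted p = 0.291) in place of 1.00 (adjusted p = 0.0173). Id4, the remaining Id gene, named after its values were seen, was at 0.59 to 1.75 TPM in the other 9 libraries and at 9.32 to 10.5 TPM in SOX2-ON, 2.81 above SOX2-OFF (SE 0.28, adjusted p = 1.09e-05).

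**Figure D4:**
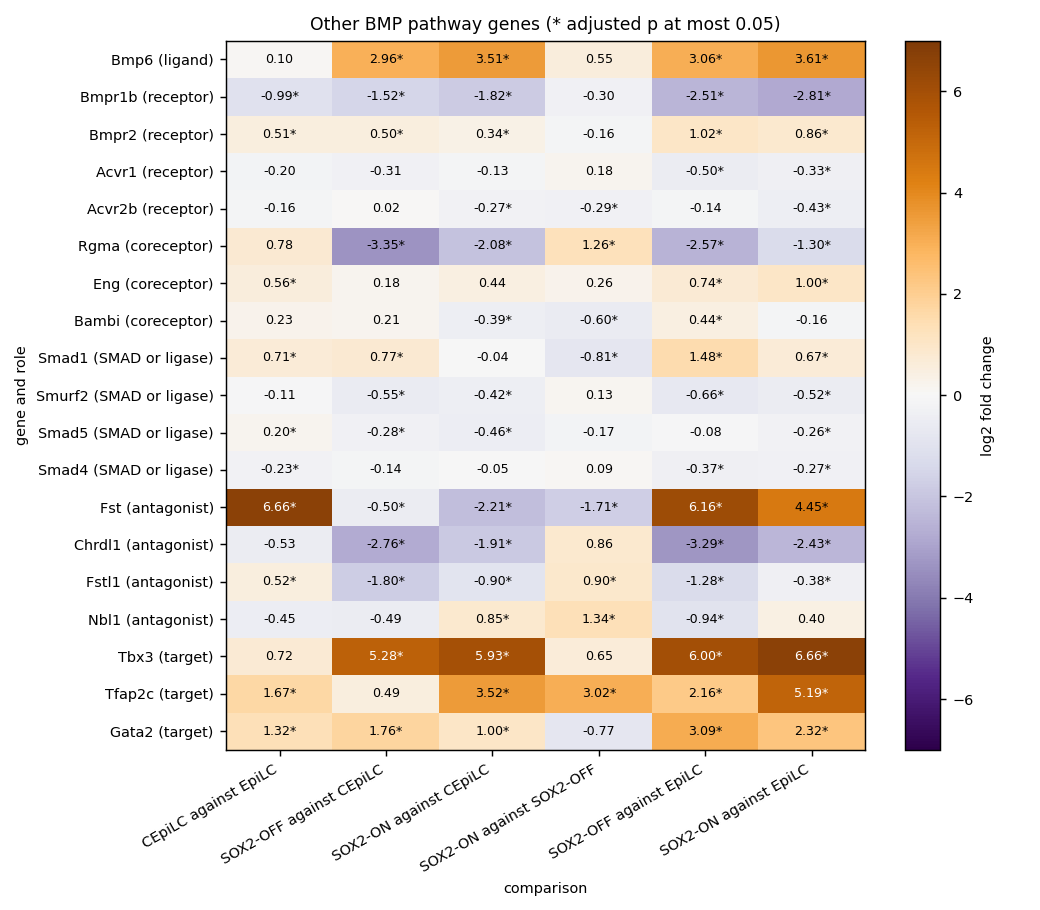
Log2 fold changes (colour and printed value) of 19 other BMP pathway genes in 6 comparisons, with the role of each gene in brackets and a star where the adjusted p was at most 0.05. Fst rises by 6.66 in CEpiLC against EpiLC, and Bmp6 and Tbx3 are not called there but are 2.96 to 6.66 higher in TetON cells than in either wild-type group.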

How the data were processed

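Per the labels and the study's methods, strand-specific RNA-seq reads of 76 bp were trimmed with cutadapt (version 1.16) and quantified against mm10 RefSeq genes with RSEM (version 1.3.0) and STAR (version 2.5.2a). The authors deposited an expected count (an estimated count, not always whole) and a TPM value (transcript abundance normalised for length and depth) for 24736 genes in 12 libraries, with 3 biological replicates in each of 4 groups. In each library 2.59% to 3.43% of expected counts were not whole, and these were rounded. Levels are given as the deposited TPM.

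Differences were tested with edgeR 4.0.16 in R 4.3.3 (TMM scaling, filterByExpr, quasi-likelihood test) in 1 fit of all 12 libraries, with p-values adjusted by Benjamini-Hochberg over all 14196 genes tested. Calls required an adjusted p of at most 0.05. Fold changes carry the standard error of the log2 value or its 95% interval, and p-values measure the spread between cultures of 1 line. The script was tested on simulated counts of 13955 genes, in which 190 of 200 changed genes were recovered for CEpiLC against EpiLC. Alternatives were DESeq2 1.42.0 (the study used version 1.16.1), limma-voom (limma 3.58.1), other scalings and filters, the 6 libraries alone, a replicate block, removal of chromosome shifts, a stricter threshold of 0.01 and leaving out each replicate.

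Same-numbered CEpiLC and EpiLC libraries deviated together (correlations of 0.120, 0.132 and 0.103 for replicates 1 to 3, from the data and not from the labels). Against CEpiLC these correlations were 0.0526, 0.179 and 0.173 for SOX2-OFF and 0.0637, 0.201 and 0.163 for SOX2-ON. The main fit had no replicate block, and the blocked value is given where it changed a call of a member. All 10 members are named; of each list of other pathway genes up to 4 were named, those called with the largest change in any comparison at a mean of at least 1 log2 CPM. The members and lists were chosen with earlier results of these data known.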

Additional observations from a re-analysis of the deposited data

How the results depend on the processing

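Of the 37 calls among 60 tests of the 10 members, 33 held under all 15 alternatives run at the same threshold. The 4 that did not were Bmp4 in CEpiLC against EpiLC (also lost with limma-voom, adjusted p = 0.103), Id3 in SOX2-ON against CEpiLC, and Smad6 in SOX2-ON against SOX2-OFF and against EpiLC. Of 23 uncalled values, 9 passed under some alternative. The number of members called between the TetON groups rose from 3 to 5 with the replicate block, through Id2 (0.56, adjusted p = 0.0447) and Msx1 (0.75, adjusted p = 0.0289). In that comparison the pairing correlations were 0.0533 to 0.0897, lower than those between CEpiLC and EpiLC, although each library correlated best with its own number. With the block Id1 was also lower in SOX2-OFF (-0.55, adjusted p = 0.0132) and SOX2-ON (-0.50, adjusted p = 0.0128) than in CEpiLC and Bmp4 was higher in SOX2-ON (0.43, adjusted p = 0.0463), while Id3 in SOX2-ON against CEpiLC was lost (adjusted p = 0.0558).

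With single libraries left out, members called ranged from 6 to 8 in CEpiLC against EpiLC, 6 to 7 and 5 to 7 for SOX2-OFF and for SOX2-ON against CEpiLC, 2 to 3 between the TetON groups, 8 in SOX2-OFF against EpiLC and 6 to 7 in SOX2-ON against EpiLC. A total of 10 uncalled differences changed sign, none with an adjusted p under 0.349 where it did. Their ranges were -0.33 to 0.26 for Msx2 in CEpiLC against EpiLC, -0.029 to 0.57 for Bmp4 in SOX2-OFF against CEpiLC and -0.39 to 0.73 for Msx1 in SOX2-ON against CEpiLC. Between the TetON groups they were -0.31 to 0.44 for Bmp2, -0.19 to 0.50 for Bmp4, -0.34 to 0.35 for Id1 and -0.013 to 0.68 for Msx2. Against EpiLC they were -0.082 to 0.29 for Id1 and -0.32 to 0.22 for Id2 in SOX2-OFF, and -0.24 to 0.45 for Id1 in SOX2-ON. At the stricter threshold of 0.01, calls in CEpiLC against EpiLC went from 18 to 11 for the other pathway genes and from 5994 to 3968 for all genes, and between the TetON groups from 4091 to 2437 for all genes. The cause of these changes was not tested, apart from the threshold itself. Counts of 5 to 17 for Bmp2, Msx1 and Msx2 in EpiLC limit the precision of their fold changes.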
